A study of Mus musculus with 24 samples.

Results

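The comparison described here is removal of 80% against removal of 70% of the liver in obese mice. It was chosen by sample title: the 4 arrays of obese mice after 80% hepatectomy against the 4 after 70%, 8 of the 24 arrays in all, over every probe that passed a detection filter. The study measured liver RNA on Illumina BeadChip arrays in lean mice and in mice made obese by diet. Each diet had a sham, a 70% hepatectomy and an 80% hepatectomy group, 6 groups of 4 arrays. Both groups compared here were male C57BL/6J mice of 12 weeks with diet-induced obesity, fed the supplier's formulation. They carried no engineered allele and were killed under isoflurane 6 h after surgery. Nothing in the labels pairs a mouse of one group with a mouse of the other. The labels number the arrays of a group as replicates without naming the animals, so the p-values measure the spread between these samples. Beside them, 8 lean arrays (4 after each resection) gave the matching comparison in lean mice, and the 4 obese sham arrays gave the level without resection.

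The liver restores its mass after partial hepatectomy. In the first hours, cytokines and gut-derived endotoxin reach the resident macrophages, hepatocytes leave quiescence and switch on early genes, and the remnant keeps up glucose, urea and plasma protein supply with fewer cells. Larger resections leave less tissue for the same portal blood flow, and a fatty liver is known to tolerate them less well. The question addressed here is which transcripts of an obese mouse's remnant differ between a resection that is standard in mice and a larger one.

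Every obese 70% array lay on slide 3 and every obese 80% array on slide 4, as the array numbers in the labels show, with 6 arrays to a slide. No comparison within a slide was therefore possible. The lean 80% group, with 2 arrays on each of those slides, is the link between them. The fit was therefore repeated with slides as random blocks and, through that link, with slides as fixed terms. Each array of the 2 groups detected 16163 to 17463 probes. The leading principal component of these 8 arrays carried 43.8% of their variance. Obese 70% arrays 1 to 3 scored -20.1 to -16.95 on it and the obese 80% arrays 4.57 to 19.4. Obese 70% array 4, at -2.09, stood apart from its group on the side of the obese 80% arrays. Over the genes called below, it lay a median of 33.6% of the way from the other three obese 70% arrays to the obese 80% mean. The tissue matched its label: 21 hepatocyte secreted protein genes were measured, with a summed intensity of 373611 to 394459 on these arrays. Of 10 adipocyte and pancreas markers with a probe, 7 failed the detection filter, among them Adipoq, Plin1, Ins2 and Cpa1. The other 3, Amy2a5, Cela1 and Lep, passed it. Their summed intensity was 10125 to 11713 after 70% and 8759 to 10458 after 80% hepatectomy, and 12176 to 13969 in obese sham liver.

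Of 19631 probes tested, 1314 (6.69%) changed, meaning a Benjamini-Hochberg adjusted p under 0.05 in limma, 750 of them higher after the larger resection (3.82%) and 564 lower (2.87%). Read by the brightest probe of each gene, 792 of 10765 genes (7.36%) changed, 438 higher (4.07%) and 354 lower (3.29%). Most differences were small: the median size among changed genes was 0.55 on the log2 scale, and 71 genes rose and 12 fell at least 2-fold. In 1616 genes (15%) the arrays of the groups did not overlap, 726 higher (6.74%) and 890 lower (8.27%). The median difference over all genes was -0.02. Of the 438 higher genes, 329 had an obese 70% mean that was above the sham mean already. Of the 354 lower genes, 192 had an obese 70% mean below the sham mean, while in 60 the sham mean lay below both resections. These are levels in bulk liver, in which fewer cells of a type and less RNA per cell cannot be told apart. With slides as random blocks 378 probes changed and with slides as fixed terms 808, of which 276 also changed without slide terms. By gene these were 242 (2.25%; 154 higher, 1.43%, and 88 lower, 0.817%) and 527 (4.9%; 246 higher, 2.29%, and 281 lower, 2.61%). Of the 792 changed genes, 773 kept their sign with fixed terms, but only 190 passed there in the same direction. Without obese 70% array 4, 1656 probes and 1002 genes (9.31%) changed, 540 higher (5.02%) and 462 lower (4.29%). Upper-quartile scaling in place of quantile normalization called 1463 probes and lowered the share that were higher from 57.1% to 40.3%. Leaving out obese 70% array 1, 2 or 3 lowered the count to 582, 646 and 494 probes, and leaving out obese 80% array 1, 3 or 4 lowered it to 750, 499 and 503.

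**Figure D1:**
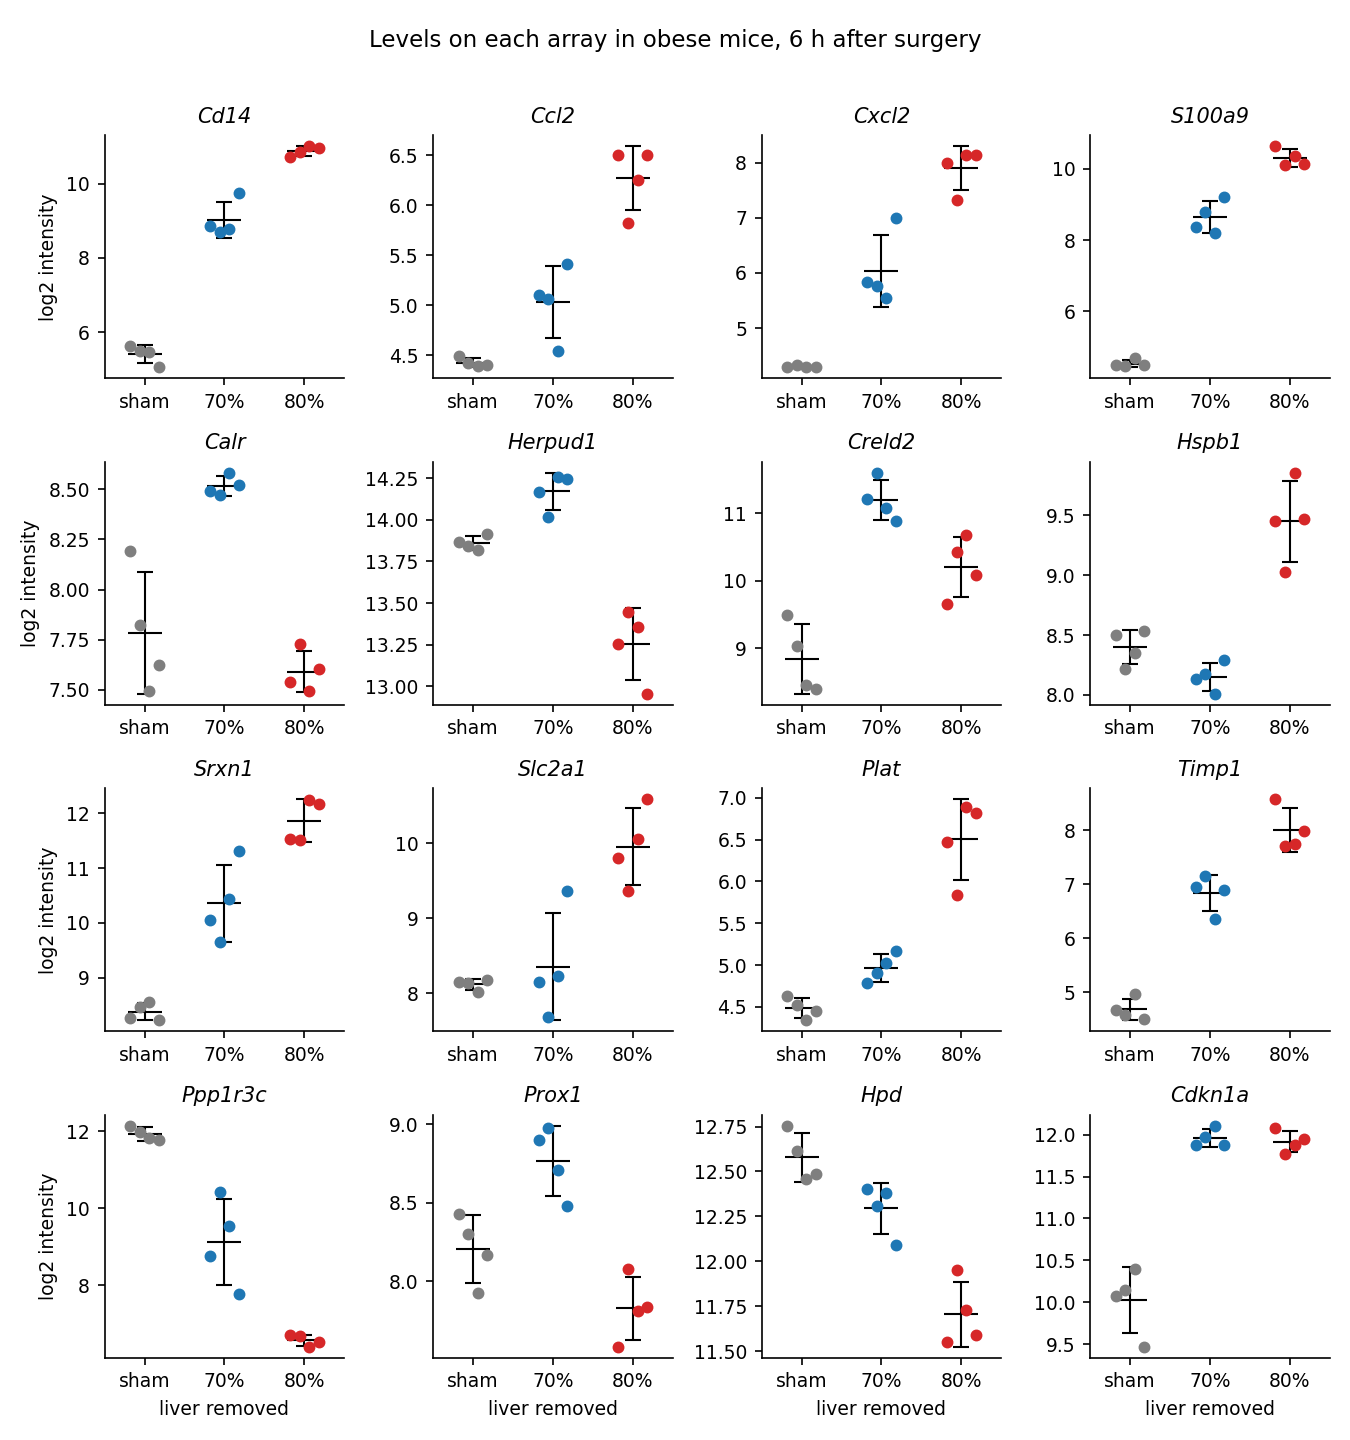
Log2 intensity of 16 genes on each obese array after sham surgery, 70% or 80% hepatectomy. Points are arrays, bars the mean and SD of 4. Cd14 lies at 8.69 to 9.76 after 70% and at 10.72 to 11.01 after 80% hepatectomy, Calr at 8.47 to 8.58 and at 7.49 to 7.73, and Cdkn1a overlaps between the resections.

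The unfolded protein response fell with the larger resection. In this response, sensors in the membrane of the endoplasmic reticulum detect unfolded protein and raise chaperones, disulfide isomerases and the machinery that removes misfolded protein. Of 20 members measured, 12 were lower and 0 higher, with a median difference of -0.55, against 3.29% of all genes lower. Some of these promoters carry the ER stress response element, a site known to be bound by the sensor ATF6 with the factor NF-Y. The element was searched as CCAAT and CCACG with 9 bases between them, on both strands of RefSeq promoters (GRCm38.p6, 250 bases before to 50 after the start). It occurred in 5 of the 11 lower members with a promoter in the table, in 2 of 6 members that did not pass (Hspa5 and Pdia6), and in 0.137% of 27025 genes. The 5 promoters are shown because their genes fell together. Each is written 5′ to 3′ on the strand of the gene, with the element in capitals.
Calr (chr8:84846882-84847181, minus strand): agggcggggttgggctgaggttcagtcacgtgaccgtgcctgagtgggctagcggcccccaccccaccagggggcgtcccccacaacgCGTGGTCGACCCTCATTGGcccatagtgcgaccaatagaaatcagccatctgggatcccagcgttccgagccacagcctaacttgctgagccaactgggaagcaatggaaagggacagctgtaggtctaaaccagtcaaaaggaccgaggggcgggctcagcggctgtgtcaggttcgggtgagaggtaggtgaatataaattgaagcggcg
Creld2 (chr15:88819396-88819695, plus strand): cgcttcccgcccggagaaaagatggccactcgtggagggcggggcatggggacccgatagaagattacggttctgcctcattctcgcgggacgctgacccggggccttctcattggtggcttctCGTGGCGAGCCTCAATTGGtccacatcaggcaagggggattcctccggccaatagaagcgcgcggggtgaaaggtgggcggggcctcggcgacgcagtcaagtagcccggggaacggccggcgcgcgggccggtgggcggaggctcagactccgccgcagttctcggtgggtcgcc
Hsp90b1 (chr10:86705395-86705694, minus strand): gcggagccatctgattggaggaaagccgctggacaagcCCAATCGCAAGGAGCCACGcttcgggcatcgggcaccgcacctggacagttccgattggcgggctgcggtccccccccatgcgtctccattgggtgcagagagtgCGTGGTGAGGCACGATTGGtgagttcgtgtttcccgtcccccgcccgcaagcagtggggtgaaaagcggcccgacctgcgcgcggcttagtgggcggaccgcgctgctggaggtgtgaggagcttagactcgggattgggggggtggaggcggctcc
Syvn1 (chr19:6046326-6046625, plus strand): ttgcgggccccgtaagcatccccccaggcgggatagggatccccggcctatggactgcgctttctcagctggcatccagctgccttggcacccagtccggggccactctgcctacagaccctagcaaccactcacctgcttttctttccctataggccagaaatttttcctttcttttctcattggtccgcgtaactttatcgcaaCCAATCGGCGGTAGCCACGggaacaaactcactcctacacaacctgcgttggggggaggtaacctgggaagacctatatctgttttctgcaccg
Dnajc3 (chr14:118937682-118937981, plus strand): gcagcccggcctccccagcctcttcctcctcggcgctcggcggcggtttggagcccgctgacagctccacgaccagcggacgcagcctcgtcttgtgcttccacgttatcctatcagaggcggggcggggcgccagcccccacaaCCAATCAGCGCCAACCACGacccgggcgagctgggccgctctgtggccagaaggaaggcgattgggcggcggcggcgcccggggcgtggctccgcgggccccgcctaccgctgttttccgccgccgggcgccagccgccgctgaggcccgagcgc
The element reads forward in Syvn1 and Dnajc3, reversed in Calr and Creld2, and once each way in Hsp90b1. Matches to other motifs are not marked in these 5, and a match in the letters is not a measured site.

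Calr encodes calreticulin, a calcium-binding chaperone of the endoplasmic reticulum. Its log2 level was 8.49, 8.47, 8.58 and 8.52 on obese 70% arrays 1 to 4 and 7.54, 7.73, 7.49 and 7.60 on obese 80% arrays 1 to 4. The groups were far apart and each was tight, and the sham mean of 7.78 ± 0.30 (SD, n = 4) was near the 80% level. Calr fell by 0.92 on the log2 scale (1.90-fold lower, SE 0.15, adjusted p = 0.00082), and the difference was -1.39 with slides as fixed terms (adjusted p = 0.0022). Herpud1, a membrane protein that helps to degrade misfolded proteins, was among the brightest transcripts, at 14.17, 14.02, 14.26 and 14.25 after 70% and 13.26, 13.45, 13.36 and 12.96 after 80% hepatectomy. All 4 obese 80% arrays lay below every obese 70% array and below the sham mean of 13.86 ± 0.04 (SD, n = 4). Herpud1 fell by 0.92 (SE 0.13, adjusted p = 0.00032). The call held with slides as random blocks (adjusted p = 0.0055) and not with fixed terms (-0.67, adjusted p = 0.11).

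Sdf2l1, a chaperone cofactor of the endoplasmic reticulum, read 7.74, 8.19, 7.76 and 7.76 after 70% and 6.16, 7.45, 7.23 and 6.35 after 80% hepatectomy. Obese 80% arrays 1 and 4 were near the sham mean of 6.24, while arrays 2 and 3 were closer to the 70% group. It fell by 1.06 (SE 0.25, adjusted p = 0.014), a call that was lost without obese 70% array 2 or obese 80% array 1 or 4 (adjusted p up to 0.065). Creld2, a secreted stress-induced disulfide isomerase, read 11.21, 11.60, 11.08 and 10.89 and then 9.65, 10.43, 10.67 and 10.08. Its groups did not overlap, and both were above the sham mean of 8.85. It fell by 0.98 (SE 0.29, adjusted p = 0.041), and lost the call in 7 of 14 alternatives, among them leaving out obese 70% array 1, 2 or 3 or obese 80% array 1 or 4 (adjusted p up to 0.14).

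The other 8 lower members are named here after their values were seen. They were the ubiquitin ligase Syvn1 (-0.81, SE 0.20), the disulfide isomerases Pdia4 (-0.80, SE 0.17) and Pdia3 (-0.56, SE 0.13), and the chaperones Hyou1 (-0.78, SE 0.18) and Hsp90b1 (-0.59, SE 0.13). The co-chaperone Dnajc3 (-0.55, SE 0.11), the degradation factor Selenos (-0.49, SE 0.11) and Edem1 (-0.64, SE 0.19), which recognises misfolded glycoproteins, completed them. In all 12, the sham mean lay below the obese 70% mean, and in 5 the obese 80% mean was below sham as well. Not every member followed. Hspa5, the main chaperone of the compartment (BiP), differed by 0.05 (SE 0.28, adjusted p = 0.95), and Xbp1, whose spliced mRNA encodes a driver of the response, by -0.01 (SE 0.13). The array does not tell the Xbp1 splice forms apart. Of the 12 lower members, 8 passed with random blocks and 6 with fixed terms, where Dnajb9 and Manf were lower as well and the median was -0.83. Leaving out obese 80% array 1 lowered the count to 7. In the integrated stress response list, a related arm that senses amino acid lack and other stresses, 1 of 18 members changed. That was the amino acid transporter chain Slc3a2 (0.92, SE 0.15, adjusted p = 0.0011), which rose, though not with fixed slide terms (adjusted p = 0.127). With those terms the median of the list turned from 0.21 to -0.30, 0 members were higher, and Ddit3 and Ddit4 were lower. Ddit3 (-0.68, SE 0.24, adjusted p = 0.086) and Atf4 (0.18, SE 0.16, adjusted p = 0.54) did not pass without slide terms.

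**Figure D2:**
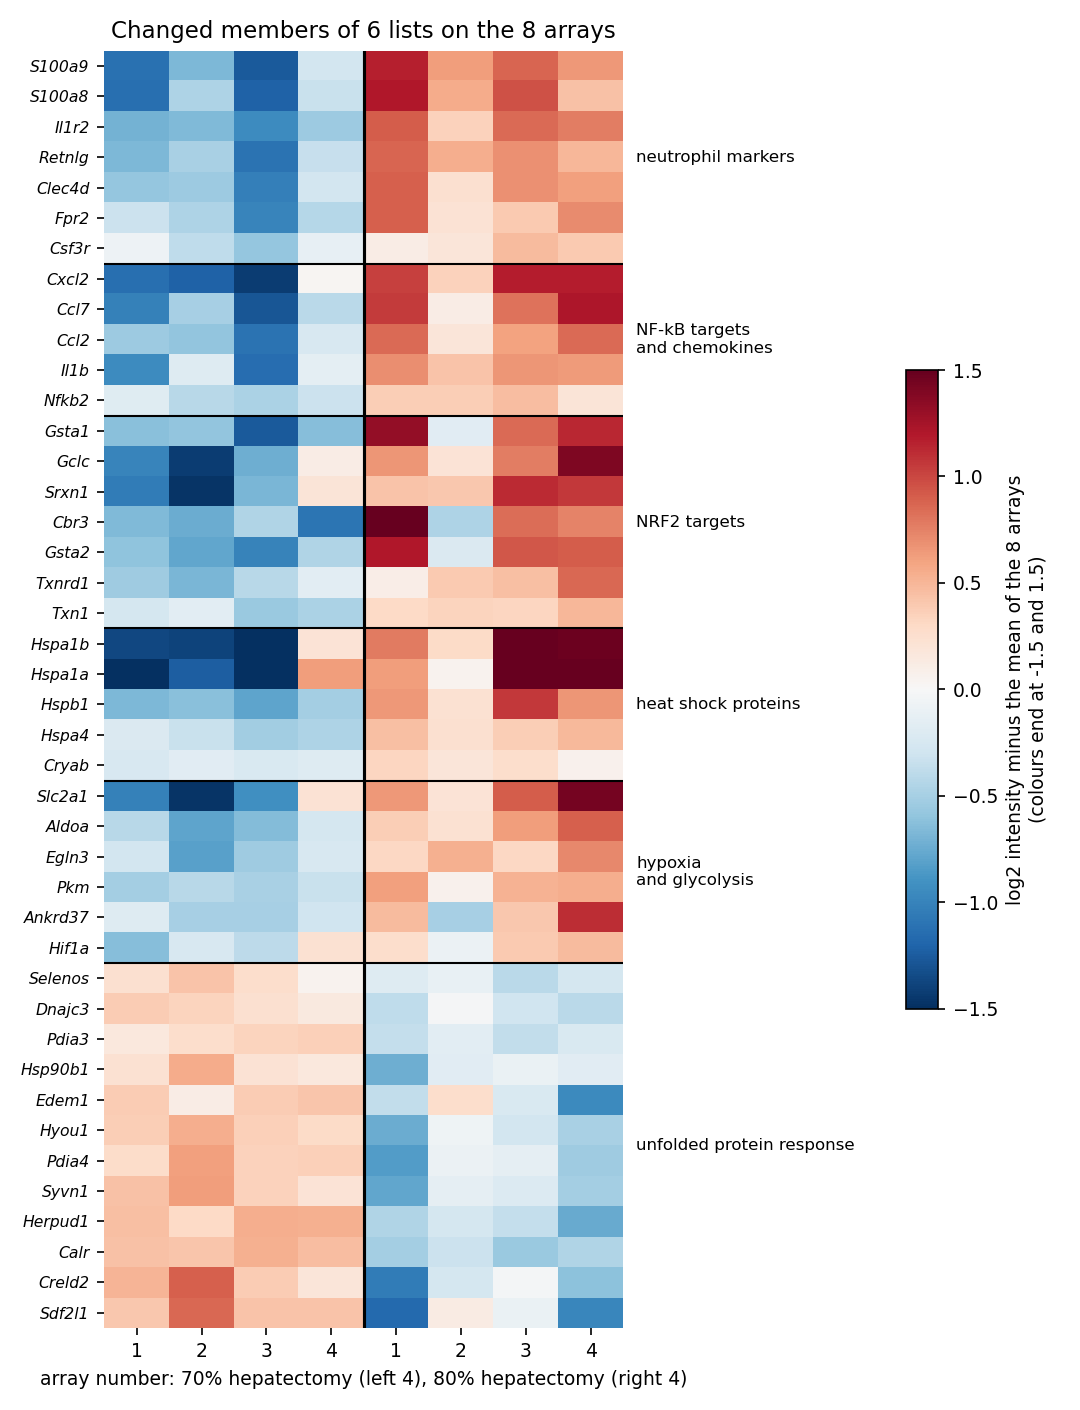
Changed members of 6 gene lists (rows) on the 8 arrays (columns), coloured by log2 intensity minus the mean of the 8 arrays. The 12 members of the unfolded protein response are mostly above their mean on the left 4 arrays and below it on the right 4, the other lists the reverse, and obese 70% array 4 is paler than arrays 1 to 3 for Hspa1a, Slc2a1 and Cxcl2.

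The endotoxin co-receptor gene Cd14 and some chemokine genes rose. Of 12 endotoxin sensing genes measured, 2 were higher and 0 lower, with a median of 0.00, against 4.07% of all genes higher. Cd14, the co-receptor that hands endotoxin to TLR4, had the smallest adjusted p of the genes described here. It read 8.86, 8.69, 8.78 and 9.76 on the obese 70% arrays and 10.72, 10.86, 11.01 and 10.96 on the obese 80% arrays. The 80% arrays were nearly equal, array 4 of the 70% group was nearer to them than its fellows, and the sham mean was 5.41 ± 0.25 (SD, n = 4). Cd14 rose 3.64-fold (log2 1.86, SE 0.20, adjusted p = 3.0e-05), by 2.17 with slides as fixed terms (adjusted p = 0.0025) and by 2.11 without array 4 of the 70% group. The other one that rose was Ly96, the TLR4 partner (0.84, SE 0.22, adjusted p = 0.026). Its arrays overlapped, and its call was lost without obese 70% array 1 or 3 or obese 80% array 1, 3 or 4, and with either slide term (adjusted p up to 0.39). With fixed terms Cd14 alone was higher and Lbp, which carries endotoxin in plasma, was lower (-0.56 without slide terms). Tlr4 itself differed by 0.14 (SE 0.16, adjusted p = 0.67) and the adaptor Myd88 by -0.38 (SE 0.19, adjusted p = 0.25).

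Among 18 measured NF-kB targets and chemokines, 5 rose and 0 fell, with a median of 0.29, against 4.07% of all genes higher. Cxcl2, a neutrophil attractant, read 5.84, 5.76, 5.55 and 7.0 after 70% and 8.0, 7.32, 8.15 and 8.15 after 80% hepatectomy. The groups did not overlap, although array 4 of the 70% group came close, and no sham array detected the gene. Cxcl2 rose 3.65-fold (log2 1.87, SE 0.33, adjusted p = 0.002). Its estimate with slides as fixed terms was larger, 3.30. The lean 80% arrays of slide 4 read 1.43 lower than those of slide 3. Ccl2, a monocyte attractant, read 5.10, 5.06, 4.55 and 5.41 (detected on 3 of 4 arrays) and then 6.51, 5.83, 6.25 and 6.50. Every obese 80% array was above every obese 70% array, and sham liver was below detection. Ccl2 rose (log2 1.24, SE 0.15, adjusted p = 0.00013), as did the related Ccl7 (1.60, SE 0.25, adjusted p = 0.00057) and the NF-kB subunit gene Nfkb2 (0.70, SE 0.13, adjusted p = 0.0022). Il1b, a cytokine of macrophages and neutrophils, rose as well (1.22, SE 0.34, adjusted p = 0.032), but not without obese 70% array 1 or 3 or obese 80% array 1, 3 or 4, or with slide terms (adjusted p up to 0.12). Cxcl1, another neutrophil attractant, differed by -0.16 (SE 0.27, adjusted p = 0.79), Tnfaip3 by 0.54 (SE 0.20, adjusted p = 0.11) and Nfkbia by 0.33 (SE 0.19, adjusted p = 0.32). With random blocks 4 of the 5 passed, and with fixed terms 3, Cxcl2, Ccl2 and Ccl7.

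Il6, a cytokine that primes hepatocytes to divide, was detected on 0 of 4 obese 70% arrays and on 3 of 4 obese 80% arrays. It read 4.69, 4.75, 4.40 and 4.53, and then 5.56, 4.79, 5.30 and 5.64. Array 2 of the 80% group was at the 70% level and the other three were above it. Il6 was at least 1.44-fold higher (adjusted p = 0.0077), counted from the lowest detected signal, and its call held with random blocks (adjusted p = 0.02) and fixed terms (adjusted p = 0.014). Its receptor Il6ra fell (-0.60, SE 0.17, adjusted p = 0.036), though not with slide terms or without obese 70% array 1 or 3 or obese 80% array 2, 3 or 4 (adjusted p up to 0.91). Socs3, the feedback inhibitor of STAT3, was at 11.16 to 11.68 after 70% and 11.46 to 11.83 after 80% hepatectomy (0.32, SE 0.25, adjusted p = 0.50), far above the sham mean of 6.52 in both. Of 23 acute phase genes, 1 changed, Saa4, a constitutive serum amyloid A, which fell (-0.97, SE 0.23, adjusted p = 0.012), but not without obese 70% array 2 (adjusted p up to 0.056). With fixed slide terms 4 acute phase genes were lower, Saa4, Apcs, Crp and Lbp, and the median went from -0.08 to -0.36. The fibrinogen chain gene Fga (-0.05, SE 0.09), haptoglobin Hp (-0.02, SE 0.13) and Lcn2 (-0.28, SE 0.48) did not pass. Saa1, at 15.28 to 15.42 after 70% hepatectomy, reached the top of the scale at 15.42, which limits what could be seen.

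Markers of neutrophils moved with the chemokines. Of 9 measured, 7 were higher and 0 lower, with a median of 1.22, against 4.07% of all genes higher. Their summed intensity was 228 to 276 in obese sham liver, 1275 to 2268 after 70% and 4060 to 6128 after 80% hepatectomy. No array of one resection reached the range of the other. S100a9, a subunit of the calcium-binding protein calprotectin, read 8.36, 8.80, 8.21 and 9.21 after 70% and 10.64, 10.11, 10.35 and 10.13 after 80% hepatectomy. Every 80% array was higher than every 70% array. S100a9 rose 3.16-fold (log2 1.66, SE 0.32, adjusted p = 0.0034) and its partner S100a8 by 1.57 (SE 0.35, adjusted p = 0.01). Both calls were lost with slides as fixed terms (adjusted p = 0.056 and 0.095). The decoy interleukin-1 receptor Il1r2 (1.43, SE 0.20, adjusted p = 0.00022), Clec4d (1.22, SE 0.20), the formyl peptide receptor Fpr2 (1.10, SE 0.24) and Csf3r (0.58, SE 0.14), the receptor for granulocyte colony-stimulating factor, rose and passed with both slide terms. Retnlg rose too (1.30, SE 0.33, adjusted p = 0.021) but not without obese 70% array 1 or 3 or obese 80% array 1 or 3 (adjusted p up to 0.083). The granule genes of immature neutrophils, Camp, Elane, Ltf, Mpo and Ngp, failed the detection filter, as did Mmp8. Slpi, an inhibitor of neutrophil elastase that epithelia and neutrophils make, read 8.14, 8.11, 7.52 and 9.18 and then 10.43, 9.01, 10.74 and 10.43. Obese 70% array 4 overlapped obese 80% array 2, and the gene rose by 1.92 (SE 0.37, adjusted p = 0.0034).

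Other cell type markers moved less. Of 16 Kupffer cell and macrophage markers, 1 rose, the lysozyme gene Lyz2 (0.85, SE 0.23, adjusted p = 0.027), which neutrophils also express. It did not pass with slide terms or without obese 70% array 1 or 3 or obese 80% array 1, 3 or 4 (adjusted p up to 0.43). Clec4f (-0.05, SE 0.19) and Adgre1 (0.28, SE 0.22), which define these cells, did not pass, and the summed intensity of the list was 3890 to 4931 after 70% and 4340 to 7096 after 80% hepatectomy. The platelet chemokines Pf4 (0.98, SE 0.22, adjusted p = 0.011) and Ppbp (0.69, SE 0.16, adjusted p = 0.013) rose, 2 of 7 red cell and platelet markers. Neither passed with slide terms, and Ppbp was lost without obese 80% array 4. None of 7 lymphocyte markers or 6 cholangiocyte markers changed, though the lymphocyte marker Cd8b1 was lower with fixed slide terms. Of 13 sinusoidal endothelial markers, the cadherin Cdh5 rose (0.61, SE 0.11, adjusted p = 0.0023), but not with fixed slide terms (adjusted p = 0.105), and Tek, Clec4g and Ehd3 fell (-0.53, -0.48 and -0.38). Those 3 calls, against 3.29% of all genes lower, were not stable. Without obese 70% array 2 or 3 or obese 80% array 3 or 4, 0 remained, and without obese 70% array 1, 1 remained. In the fit of only the compared arrays 0 remained, and with random blocks 1. With fixed slide terms Tek and Ehd3 passed and Clec4g did not. The part of these cell types in the other results was not tested.

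**Figure D3:**
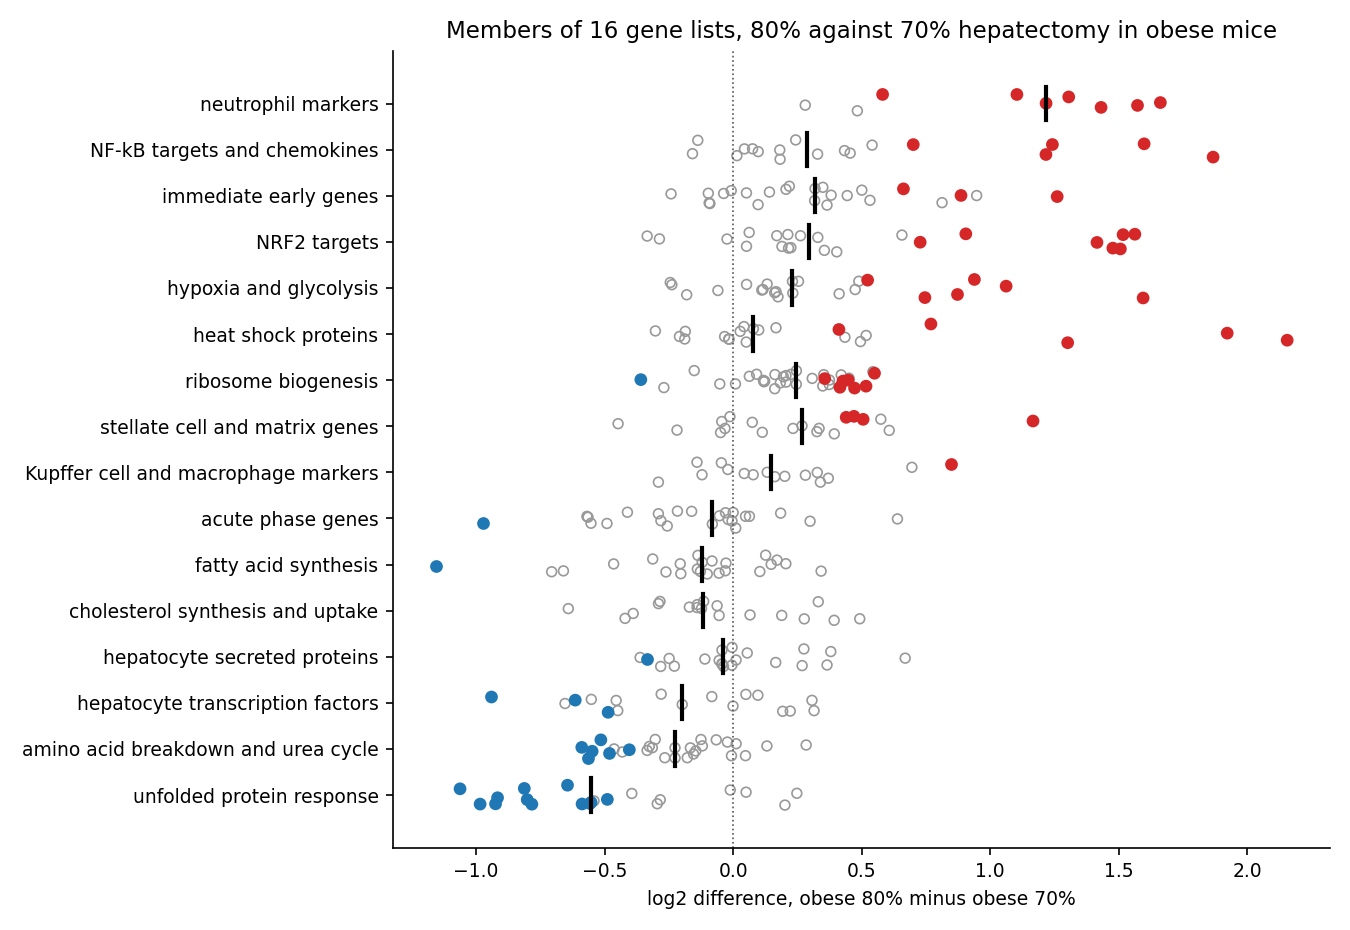
Log2 difference of each measured member of 16 gene lists, obese 80% minus obese 70%. Filled points have an adjusted p under 0.05 (red higher, blue lower), open points do not, and black bars are medians. The neutrophil markers lie farthest right (median 1.22) and the unfolded protein response farthest left (median -0.55).

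Cytosolic heat shock proteins rose in part. These chaperones are made when proteins denature in the cytosol and are driven by the factor HSF1. Of 21 members measured, 5 rose and 0 fell, with a median of 0.08, against 4.07% of all genes higher. Hspb1, a small chaperone, read 8.13, 8.18, 8.01 and 8.29 after 70% and 9.46, 9.03, 9.86 and 9.47 after 80% hepatectomy. The 70% arrays were near the sham mean of 8.40 ± 0.15 (SD, n = 4) and the 80% arrays all above it. Hspb1 rose 2.46-fold (log2 1.30, SE 0.17, adjusted p = 0.00016), with 1.21 (adjusted p = 0.027) under fixed slide terms. The stress-induced Hsp70 gene Hspa1b read 5.75, 5.73, 5.35 and 7.31 and then 7.90, 7.40, 8.88 and 8.58. Array 4 of the 70% group almost reached the 80% group, whose own arrays were spread over more than 1 log2 unit. Hspa1b rose 4.45-fold (log2 2.15, SE 0.41, adjusted p = 0.0032), and its near-identical copy Hspa1a by 1.92 (SE 0.39, adjusted p = 0.0053). The array may not tell them apart, another probe of Hspa1b differed by 0.22, and with fixed slide terms neither passed (1.45 and 1.07, adjusted p = 0.29 and 0.43). Hspa4 (0.77, SE 0.18) and Cryab (0.41, SE 0.12) rose as well. Most chaperones of the list did not pass, among them Hspa8 (-0.19, SE 0.18), Dnaja1 (-0.30, SE 0.21) and Hspd1 (0.08, SE 0.08). With random blocks 2 of the 5 passed, and 3 members rose without obese 70% array 3. With fixed terms Hspb1 alone was higher, the chaperone genes Chordc1 and Dnaja1 were lower, and the median turned from 0.08 to -0.07. The heat shock element, searched as GAA, TTC and GAA with 2 bases between neighbours on both strands, was in 0 of the 4 matched promoters of members that rose, in 4 of 14 that did not pass and in 0.662% of genes.

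Genes of the NRF2 pathway, which the factor NRF2 switches on against oxidants and electrophiles, rose as well. Of 22 measured targets, 7 were higher and 0 lower, with a median of 0.30, against 4.07% of all genes higher. Srxn1, which repairs oxidised peroxiredoxins, read 10.06, 9.65, 10.43 and 11.30 after 70% and 11.54, 11.52, 12.24 and 12.17 after 80% hepatectomy. The highest 70% array, array 4, was just below the lowest 80% array, and the sham mean was 8.38. Srxn1 rose 2.84-fold (log2 1.51, SE 0.27, adjusted p = 0.0021), 2 other probes of the gene by 1.49 and 1.74, and the call held with fixed slide terms (2.17, adjusted p = 0.011). Gclc, the catalytic subunit of the first enzyme of glutathione synthesis, read 8.26, 7.82, 8.52 and 9.37 and then 9.91, 9.46, 10.02 and 10.65. Its groups touched without overlapping, and it rose by 1.52 (SE 0.28, adjusted p = 0.0025; adjusted p = 0.059 with fixed slide terms). The glutathione transferases Gsta2 (1.41, SE 0.31, adjusted p = 0.0094) and Gsta1 (1.56, SE 0.45, adjusted p = 0.037), whose sequences are alike enough to share signal, the carbonyl reductase Cbr3 (1.48, SE 0.31) and the thioredoxin system genes Txnrd1 (0.90, SE 0.18) and Txn1 (0.73, SE 0.17) rose too. Obese 80% array 2 was the lowest of its group for Gsta1, Gsta2 and Cbr3. Gsta1 lost its call with either slide term and without any of obese 70% arrays 1 to 3 or obese 80% arrays 1, 3 and 4 (adjusted p up to 0.12). Hmox1 (0.66, SE 0.36, adjusted p = 0.29), Nqo1 (-0.02, SE 0.15) and Gclm (0.21, SE 0.16) did not pass. With random blocks 5 members passed and with fixed terms 2, Srxn1 and Gsta2. The core of the antioxidant response element, TGACNNNGC on either strand, was in 2 of the 6 matched promoters of members that rose (Srxn1 and Txnrd1), in 4 of 13 that did not pass and in 14.0% of genes.

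Some genes of glucose uptake, glycolysis and low oxygen rose. Of 23 measured, 6 were higher and 0 lower, with a median of 0.23, against 4.07% of all genes higher. Slc2a1, a glucose transporter that hepatocytes make little of, read 8.14, 7.68, 8.24 and 9.37 after 70% and 9.80, 9.36, 10.06 and 10.58 after 80% hepatectomy. Obese 70% arrays 1 and 3 were near the sham mean of 8.12 ± 0.07 (SD, n = 4), array 2 was below it, and array 4 overlapped the 80% group. Slc2a1 rose 3.02-fold (log2 1.59, SE 0.35, adjusted p = 0.0088), 2.98 on the log2 scale with fixed slide terms (adjusted p = 0.0041). The glycolytic enzyme Aldoa read 8.15, 7.77, 7.92 and 8.31 and then 8.93, 8.80, 9.20 and 9.46. The 70% arrays lay below the sham mean of 8.65 and the 80% arrays above it (1.06, SE 0.16, adjusted p = 0.00032). Pkm, the pyruvate kinase of non-hepatocyte and growing cells, rose by 0.87 (SE 0.13, adjusted p = 0.00052) and the oxygen sensor Egln3 by 0.94 (SE 0.21, adjusted p = 0.01), both also with fixed slide terms. Hif1a (0.52, SE 0.15) and Ankrd37 (0.75, SE 0.21) passed without slide terms only. With fixed terms Mxi1 and Ndrg1 were higher too, and the median was 0.03. Vegfa (0.12, SE 0.11), Pdk1 (-0.18, SE 0.15) and Ldha (-0.24, SE 0.13), also known targets of hypoxia, did not pass.

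Ppp1r3c, a subunit that directs a phosphatase to glycogen, fell most of all changed genes. It read 8.76, 10.43, 9.53 and 7.78 after 70% and 6.70, 6.66, 6.40 and 6.51 after 80% hepatectomy. The 70% arrays were spread over more than 2 log2 units between the sham mean of 11.93 and the 80% level, where all 4 arrays were alike. It fell by 2.56 (5.88-fold lower, SE 0.55, adjusted p = 0.0081, and adjusted p = 0.12 with fixed slide terms). It was the 1 of 16 glycogen genes that changed. Ppp1r3b, the related hepatic subunit, differed by -0.87 (SE 0.39, adjusted p = 0.19). None of 23 gluconeogenesis and insulin response genes changed: G6pc differed by -0.76 (SE 0.30, adjusted p = 0.13), Pck1 by 0.41 (SE 0.22) and Irs2 by -0.49 (SE 0.26). Lipid genes differed little. Of 23 fatty acid synthesis genes 1 fell, the lipogenic regulator Thrsp (-1.16, SE 0.30, adjusted p = 0.023), of 18 cholesterol genes 0 changed, and of 22 PPARA targets 1 rose, the transcription factor Creb3l3 (0.55, SE 0.13), which was lost with both slide terms and without obese 70% array 3 or obese 80% array 4 (adjusted p up to 0.69). Pdk4, a brake on pyruvate oxidation, was at 9.71 to 10.56 after 70% and 10.38 to 12.15 after 80% hepatectomy and did not pass (1.22, SE 0.43, adjusted p = 0.085). Of 21 lipid droplet and lipase genes, the lipase inhibitor G0s2 (1.00, SE 0.27, adjusted p = 0.029) and the droplet protein Hilpda (1.15, SE 0.33, adjusted p = 0.04) rose. Thrsp, G0s2 and Hilpda lost their calls with both slide terms (adjusted p up to 0.46, 0.28 and 0.16 over all alternatives). They also lost them without any one of obese 70% array 3 and obese 80% arrays 3 and 4, and further without obese 70% array 1 (Thrsp, Hilpda), 2 (G0s2, Hilpda) or 4 (G0s2) or obese 80% array 1 (G0s2, Hilpda). Plin2, the main droplet coat protein, differed by 0.43 (SE 0.18, adjusted p = 0.16), and Fasn by 0.10 (SE 0.29).

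Several of the leading rises, chosen here by size, encode proteins of blood vessels, matrix or blood cells, while the lists of these functions moved little. Of 34 complement and coagulation genes, 1 rose (Thbd) and 1 fell (F11, clotting factor XI, -0.59, and not with slide terms), with a median of -0.06. Plat, tissue plasminogen activator, read 4.78, 4.90, 5.02 and 5.17 (detected on 3 of 4 arrays) after 70% and 6.48, 5.83, 6.88 and 6.81 after 80% hepatectomy. It was near the detection floor after the smaller resection, undetected in sham liver and clearly present on every 80% array (1.53, SE 0.22, adjusted p = 0.00028). Timp1, an inhibitor of matrix metalloproteinases, read 6.94, 7.15, 6.36 and 6.90 and then 8.57, 7.7, 7.74 and 7.99. The groups did not overlap, and Timp1 rose 2.24-fold (log2 1.17, SE 0.20, adjusted p = 0.0015). Thbd, the endothelial receptor that turns thrombin into an anticoagulant, rose by 0.91 (SE 0.13, adjusted p = 0.00028; adjusted p = 0.059 with fixed slide terms). Srgn, a proteoglycan of blood cell and endothelial granules, read 8.36, 8.30, 8.01 and 8.45 and then 10.07, 9.51, 9.80 and 9.61. It rose 2.77-fold (log2 1.47, SE 0.18, adjusted p = 0.00013), and a second probe by 1.33. The sphingosine kinase Sphk1 (1.43, SE 0.20), the cholesterol hydroxylase Ch25h (1.70, SE 0.24) and the scaffold protein Akap12 (1.72, SE 0.23) each had an adjusted p of 0.00028 or less, and each passed with both slide terms. Angpt2, an antagonist of the endothelial receptor Tek, rose (1.09, SE 0.26, adjusted p = 0.016) but not without obese 70% array 1 or 3 or obese 80% array 1, 3 or 4 (adjusted p up to 0.072). Structural matrix genes did not follow: Col1a1 differed by -0.04 (SE 0.22), Col3a1 by 0.23 (SE 0.43) and the stellate cell gene Des by -0.01 (SE 0.11). Of 19 genes of that list, 4 rose, against 4.07% of all genes. This count fell to 1 with either slide term and without obese 70% array 3 or obese 80% array 1, and to 2 without obese 70% array 1 or 2 or obese 80% array 3 or 4.

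Hepatocyte genes fell in a few places. Prox1, a transcription factor of the hepatocyte lineage, read 8.90, 8.98, 8.71 and 8.48 after 70% and 7.58, 8.08, 7.81 and 7.84 after 80% hepatectomy. The sham mean of 8.21 lay between the groups. Prox1 fell by 0.94 (SE 0.16, adjusted p = 0.0019, and adjusted p = 0.041 with fixed slide terms). Of 17 hepatocyte transcription factors, 3 fell and 0 rose, against 3.29% of all genes lower. The others were the xenobiotic receptor Nr1i3 (-0.61, SE 0.14), whose other probes ranged from -0.62 to 0.06, and Onecut2 (-0.49, SE 0.14). Prox1 alone of the 3 passed with either slide term, Foxa3 and Nr1h4 being lower as well with fixed terms. The count was 1 without obese 70% array 3 or obese 80% array 4, and 5 without obese 70% array 4. Hnf4a (0.31, SE 0.11, adjusted p = 0.082) and Cebpa (0.00, SE 0.15) did not pass. Of 28 genes of amino acid breakdown and the urea cycle, 6 fell and 0 rose, with a median of -0.23, against 3.29% of all genes lower. Hpd, an enzyme of tyrosine breakdown, read 12.40, 12.31, 12.38 and 12.09 and then 11.55, 11.95, 11.73 and 11.59. The 80% arrays were all lower (-0.59, SE 0.14, adjusted p = 0.012, and adjusted p = 0.0497 with fixed slide terms). The urea cycle enzyme Asl (-0.56, SE 0.15), the aminotransferase Oat (-0.55, SE 0.14), Cbs of sulfur amino acid metabolism (-0.51, SE 0.15), the methyltransferase Gnmt (-0.48, SE 0.11) and Kynu of tryptophan breakdown (-0.40, SE 0.11) fell too, while Cps1 (-0.43, SE 0.13, adjusted p = 0.054) and Arg1 (-0.01, SE 0.09) did not pass. This count fell to 2 or 3 without any one of obese 70% arrays 1 to 3 or obese 80% arrays 1, 3 and 4, and 3 of the 6 passed with random blocks. With fixed terms Hpd and Oat passed, and Glul and Prodh were lower as well. Upper-quartile scaling gave 9 lower. The sulfotransferase Sult1d1 fell by 0.78 (SE 0.17, adjusted p = 0.0076) and passed with both slide terms, and of 28 cytochromes P450 the single change was Cyp3a13 (-0.47, SE 0.11), which was lost with fixed terms (adjusted p = 0.084). Of 21 secreted protein genes, 1 fell, vitronectin Vtn (-0.33, SE 0.09). It was lost with both slide terms, in the fit of only the compared arrays and without any one of obese 70% arrays 1 to 3 or obese 80% arrays 1, 3 and 4 (adjusted p up to 0.19). Alb did not pass (0.67, SE 0.25, adjusted p = 0.11). Its probe read 8.64 to 9.17 on the obese 70% arrays, where the mean of the list was 13.31 to 13.34. Whether that probe reports the albumin transcript was not tested.

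Growth and cell cycle genes gave few differences at 6 h. Of 24 immediate early genes, 3 rose, against 4.07% of all genes: Ier3 (1.26, SE 0.30), Dusp1, a phosphatase that switches off MAP kinases (0.89, SE 0.25), and Klf4 (0.66, SE 0.16). None of the 3 passed with either slide term, while Btg1 and Fosb were higher with fixed terms. The count was 1 without obese 70% array 2 or 3 or obese 80% array 3 or 4, and 5 without obese 70% array 4. Egr1 (-0.10, SE 0.37), Fos (0.35, SE 0.35), Jun (0.10, SE 0.26) and Myc (-0.01, SE 0.16) did not pass. Ccnd1, the G1 cyclin, read 10.29, 10.16, 10.36 and 9.31 after 70% and 9.75, 9.26, 9.4 and 9.09 after 80% hepatectomy. Obese 70% array 4 lay within the 80% range and the other three above it. Ccnd1 fell by 0.66 (SE 0.20, adjusted p = 0.047), kept its call in 4 of 14 alternatives, and fell by 0.90 without obese 70% array 4 (adjusted p = 0.0029). It was lost without obese 70% array 1, 2 or 3 or obese 80% array 2, 3 or 4. The cell cycle inhibitor Cdkn1a was at 11.88 to 12.11 and 11.77 to 12.08, both above the sham mean of 10.02, and differed by -0.04 (SE 0.28). Of 24 DNA replication genes, the clamp Pcna (0.62, SE 0.17) and the polymerase subunit Pola2 (0.42, SE 0.10) rose. Pola2 was lost with fixed terms (adjusted p = 0.108). Pcna did not pass with slide terms or without obese 70% array 1, 2 or 3 or obese 80% array 1, 3 or 4 (adjusted p up to 0.086). None of 12 mitosis genes changed. Ribosome biogenesis genes were 7 higher and 1 lower of 35, with a median of 0.25, against 4.07% of all genes higher and 3.29% lower. Among the higher were the nucleolar proteins Gnl2 (0.55, SE 0.13), Mybbp1a (0.52, SE 0.11) and Lyar (0.47, SE 0.10). None of the 7 passed with either slide term, and without single arrays 2 to 10 rose: 3 without obese 70% array 1 or 2 or obese 80% array 3, 2 without obese 70% array 3 or obese 80% array 4, and 4 without obese 80% array 1. Upper-quartile scaling lowered the 7 to 3, and the fit of only the compared arrays to 4. Of 16 growth factors and receptors, Egfr, a receptor for hepatocyte mitogens, fell (-0.89, SE 0.22, adjusted p = 0.018), though not with slide terms or without obese 70% array 2 or obese 80% array 1 or 3. Fst, an antagonist of the growth inhibitor activin, rose (1.11, SE 0.26, adjusted p = 0.012, and adjusted p = 0.058 without obese 80% array 4). Fgf1 fell by 1.04 (SE 0.19, adjusted p = 0.0027, and adjusted p = 0.054 with fixed slide terms). Hgf, a hepatocyte mitogen, differed by -0.25 (SE 0.15, adjusted p = 0.34).

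**Figure D4:**
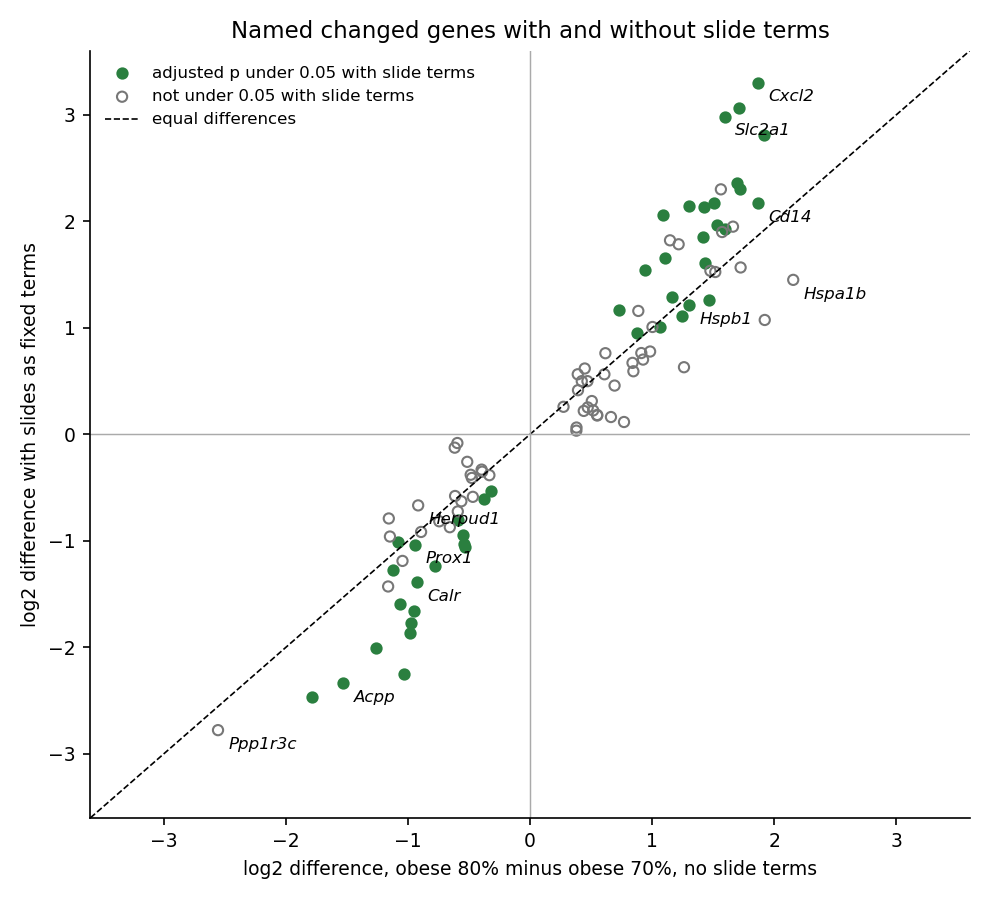
Log2 difference of the 101 named genes that changed, without slide terms (horizontal axis) and with slides as fixed terms (vertical axis). Filled points pass with slide terms, open points do not, and the dashed line marks equal values. Cxcl2 (1.87 and 3.30) and Calr (-0.92 and -1.39) lie beyond the line, Hspa1b (2.15 and 1.45) and Herpud1 (-0.92 and -0.67) within it.

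The lean mice show which of these differences went with the larger resection there too. The test is the interaction, the obese difference minus the lean one. It called 2817 probes (14.3%), 1498 with a positive sign (7.63%) and 1319 with a negative one (6.72%), and 1424 genes (13.2%). In lean mice alone 3439 probes (17.5%) changed, 1609 higher (8.2%) and 1830 lower (9.32%), and 1820 genes (16.9%), 774 of them higher (7.19%). With upper-quartile scaling the share with a positive sign went from 53.2% to 35.5% for the interaction, and the share higher in lean mice from 46.8% to 55.4%. The interaction uses the arrays of both contrasts, so their values are set side by side. The lean 70% arrays lay on a slide that no group links to slides 3 and 4, so slide and resection cannot be told apart in this test. Of the 792 genes changed in obese mice, 639 did not change in lean mice, where 16.9% of all genes changed. In lean mice 100 changed in the same direction, and the rest of those that changed there went the opposite way. The sign was the same in 433 of the 792, whether or not the gene changed in lean mice. The interaction was also passed by 352, against 13.2% of all genes. The interaction contains the obese difference by which these genes were chosen. A share above that of all genes is therefore no separate evidence. Akap12 (1.72 in obese, 1.41 in lean), Ch25h (1.70 and 1.51), Thbd (0.91 and 0.98) and Fst (1.11 and 1.5) rose in both diets. So did Egln3 (0.94 and 1.24), and Sdf2l1 (-1.06 and -1.17) and Pdia4 (-0.80 and -0.90) fell in both.

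Other genes differed between the diets. Cd14 rose by 1.86 in obese and differed by 0.22 (SE 0.20) in lean mice, an interaction of 1.64 (SE 0.28, adjusted p = 0.00068, and adjusted p = 0.0043 with random blocks). Plat (1.53 and -0.32, interaction 1.86, SE 0.31), Timp1 (1.17 and -0.45, interaction 1.62, SE 0.28) and Pkm (0.87 and -0.18, interaction 1.05, SE 0.19) behaved alike, with adjusted p = 0.00061, 0.0008 and 0.0011. Gsta1 rose in obese and fell in lean mice (1.56 and -1.48, interaction 3.05, SE 0.63, adjusted p = 0.0034). Fgf1 (-1.04 and 0.49, interaction -1.54, adjusted p = 0.00099) and the hyaluronidase Hyal1 (-1.16 and 0.73, interaction -1.89, adjusted p = 0.0012) had the opposite order. Calr (interaction -0.80, SE 0.21, adjusted p = 0.014) and Herpud1 (-0.79, SE 0.19, adjusted p = 0.0087) fell in obese mice and differed by -0.12 and -0.13 in lean mice. Among the lists, 10 of 22 NRF2 targets, 5 of 9 neutrophil markers and 8 of 16 Kupffer cell markers had a positive interaction, against 7.42% of all genes, and 5 of 20 members of the unfolded protein response a negative one, against 5.81%. The Kupffer cell markers changed chiefly on the lean side, where 14 of 16 fell, with a median of -0.77, against 9.72% of all genes. Their mean level was 8.46, 8.87, 8.76 and 7.51 on lean 70% arrays 1 to 4 and 7.53 to 7.81 on the lean 80% arrays. Lean 70% array 4 thus lay below every lean 80% array, and the lean sham arrays were at 7.68 to 8.14. Without lean 70% array 4 the interaction called 3663 probes.

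**Figure D5:**
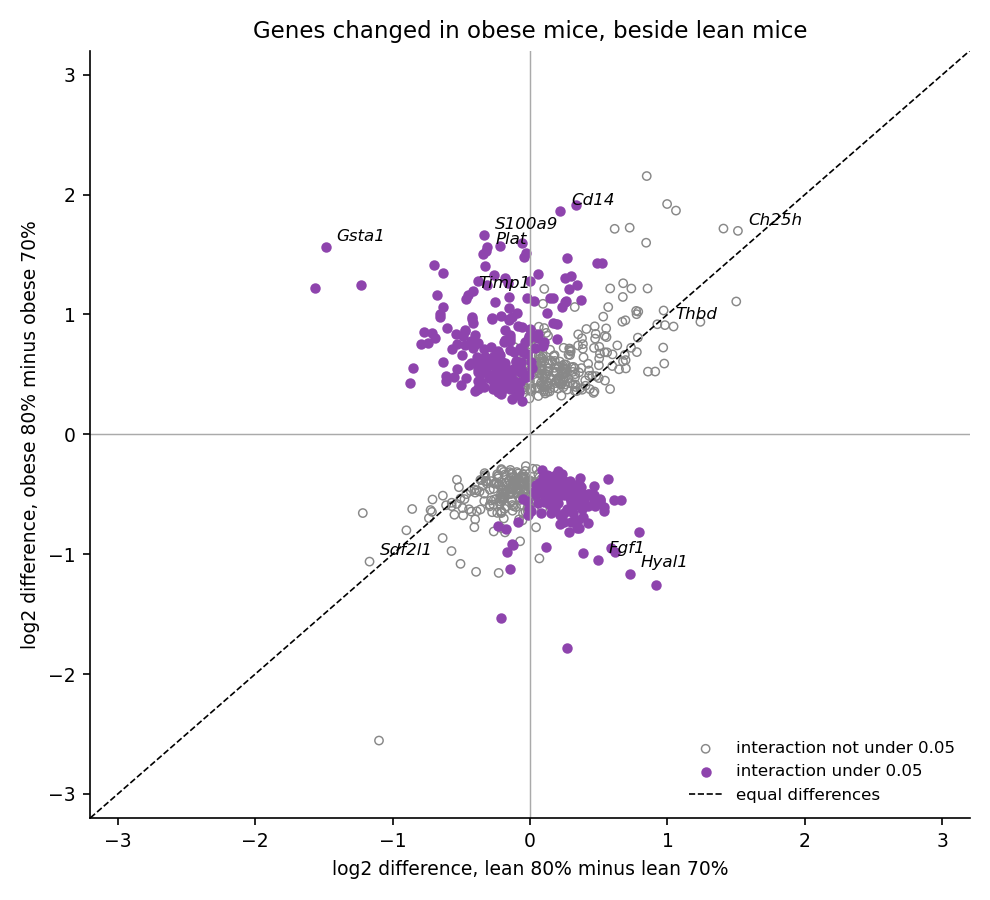
Log2 difference between 80% and 70% hepatectomy in lean (horizontal axis) and obese mice (vertical axis), for the 792 genes changed in obese mice. Filled points pass the interaction test, and the dashed line marks equal differences. Ch25h, Thbd and Sdf2l1 lie near the line, and Gsta1, Plat, Timp1 and Hyal1 far from it.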

How the data were processed

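Probe intensities were used as deposited, bead averages without background correction or normalization per the file headers. The deposited detection score rises with brightness, so 1 minus the score served as detection p. The authors' deposited log2 table, centred on each probe's median over arrays, served as an alternative; its upstream software is not given in the sources used here. No array was left out.

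Background was corrected by normexp on detection p (offset 16), then arrays were quantile normalized and put on the log2 scale, in limma 3.58.1 under R 4.3.3. Probes with detection p under 0.05 on at least 4 of 24 arrays were kept. One model with 6 group means was fitted over all 24 arrays (18 residual degrees of freedom), and p-values were Benjamini-Hochberg adjusted over all probes. A gene was read by its brightest probe. Of 45281 probes, 34885 had 1 gene symbol, 18 several and 10378 none in the platform annotation, updated through RefSeq. Where a gene was below background on every array of a group, a lower bound of the fold is given. Bead numbers per probe were not used, and the number of arrays limits precision. The code was checked on simulated data.

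The comparison and the gene lists were chosen with earlier results of these data known. Named were the 15 largest rises and falls among changed genes whose groups did not overlap, up to 4 changed members a list, 38 fixed genes, and 5 each way for the interaction and for slides. Further list members were named after their values were seen. Same-numbered arrays of the groups correlated by -0.097 to 0.080 in their deviations, so the numbers do not pair them. Alternatives changed background, scaling, filter, probes per gene, arrays fitted, slide terms, array weights and single arrays.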

Additional observations from a re-analysis of the deposited data

Results flagged for a closer look

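In 272 groups of 4 arrays checked for the named genes, 22 held an array far from the other three. Chance alone marks about 5% of such groups. On obese 70% array 1, the log2 levels so marked were Ciart 7.962. On obese 70% array 2, the log2 levels so marked were Egr1 12.67, Klf4 4.934, Prtn3 4.408, Sdf2l1 8.19 and Slc43a1 6.937. On obese 70% array 3, the log2 levels so marked were Cyp27a1 12.85 and Gsta1 9.527. On obese 70% array 4, the log2 levels so marked were Alb 8.639, Aldh8a1 9.105, Cd14 9.761, Cyp7a1 4.966, Hspa1a 7.594, Pf4 7.527, Pola2 5.534 and Saa1 15.28. On obese 80% array 2, the log2 levels so marked were Pck1 10.5, Pkm 7.996, Plin2 12.09 and Sars 7.75. On obese 80% array 4, the log2 levels so marked were Cyp7a1 5.821 and Lepr 4.908. On obese 70% array 4, Cd14, Hspa1a, Pf4, Pola2, Aldh8a1, Saa1 and Cyp7a1 lay toward the 80% mean, and Alb lay away from it. For Cyp7a1, which encodes an enzyme that makes bile acids, both groups held such an array.

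For these genes the difference between 80% and 70% hepatectomy was not the same in obese and lean mice, by the interaction test in limma (adjusted p under 0.05). Some of them did not pass in the obese comparison, among them Saa3 (-0.57 there), Hmox1 (0.66), Irs2 (-0.49) and Myc (-0.01). The values that follow are the obese log2 difference minus the lean one. The most positive were Prtn3 3.7, Ly6d 3.14, Spink1 3.09, Gsta1 3.05, Saa3 2.94, Gsta2 2.12, S100a9 2, Hmox1 1.96 and Plat 1.86. Next came Srxn1 1.85, S100a8 1.79, Slc2a1 1.65, Pf4 1.64, Cd14 1.64, Timp1 1.62, Slpi 1.58, Lyz2 1.56 and Gclc 1.55. Smaller positive values were those of Cbr3 1.52, Retnlg 1.49, Ly96 1.38, Srgn 1.2, Pkm 1.05, Hspb1 1.05, Il1r2 0.947, Ppbp 0.927 and Sphk1 0.905. The remaining positive values were Ccl2 0.902, Hspa4 0.804, Slc3a2 0.762, Psmd11 0.756, H2-K1 0.647, Creb3l3 0.637, Sars 0.571 and Rpl34 0.335. The most negative were Eif4ebp3 -2.17, Irs2 -2.17, 9530077C05Rik -2.05, Cyp2b10 -1.97, Hyal1 -1.89, Creld2 -1.6, Fgf1 -1.54, Ppm1l -1.54 and Acpp -1.32. They were followed by Fas -1.17, Sult1d1 -1.14, Asl -1.07, Prox1 -1.06, Slc30a5 -1.05, Il6ra -1.02, Cdkn1c -0.996, Kank1 -0.977 and Hgf -0.931. The remaining negative values were Tek -0.821, Calr -0.803, Nr1i3 -0.797, Herpud1 -0.785, Hpd -0.735, Myc -0.694 and Ehd3 -0.594. Srxn1, Gclc, Cbr3, Gsta1, Gsta2 and Hmox1 of the NRF2 list and S100a8, S100a9, Retnlg and Il1r2 of the neutrophil list are all among the positive values. Prtn3 was not a measured member of that list. It read 4.408 to 4.505 on the obese 70% arrays, below their lowest detected signals of 4.77 to 4.84. The lean 70% arrays lay on a slide of their own in this comparison, so slide and group cannot be told apart.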

How the results depend on the processing

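The obese comparison called 1314 probes. The count was 846 with 1 probe a gene (fewer probes tested), 378 with slides as random blocks, 808 with slides as fixed terms and 3305 with array weights, and the cause of the last was not tested. Leaving out single arrays gave 494 to 1656 probes. None of the 101 named genes that changed reversed its direction under the 14 alternatives run for single genes. For named genes that did not change, a turn of sign was counted only where an alternative called them, and none was. Of 136 named genes, 90 kept their side of the threshold with random blocks, 78 with fixed terms, 127 with upper-quartile scaling and 130 without background correction. These counts include named genes that did not change in any of the fits. Of the 101 that changed, 46 lost the call with random blocks and 58 with fixed terms.

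The interaction called 2817 probes, 1331 with 1 probe a gene and 868 with random blocks, and 1990 to 3663 without single arrays. Fixed slide terms could not be fitted for it or for the lean comparison. The lean comparison called 3439 probes, 2064 among probes detected on all its arrays, 1789 with 1 probe a gene, 1085 with only its own arrays, 1808 with random blocks, and 2301 to 4349 without single arrays.

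A replicate block called 1266 probes in the obese comparison and 2688 for the interaction, 133 of 136 named genes kept their side of the threshold, and the members of the unfolded protein response that fell numbered 10. Same-numbered arrays did not deviate together, so the numbers give no pairing. Resection and slide coincide, 4 arrays a group limit the precision, and signals near the floor of 4.73 to 4.92 or the top of 15.42 compress differences.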

Other observations

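Several of the leading falls belonged to no list. Acpp, a phosphatase, read 6.26, 6.92, 5.81 and 5.33 on the obese 70% arrays and was detected on 0 of 4 obese 80% arrays, at least 2.48-fold lower (adjusted p = 0.0019, and adjusted p = 0.0061 with slides as fixed terms). The unnamed transcript 9530077C05Rik was likewise detected on all 4 obese 70% arrays, at 4.97 to 8.34, and on 0 of 4 after 80% hepatectomy, at least 3.07-fold lower (adjusted p = 0.0079). Outside the obese 70% group it was detected on 1 lean 80% array only. It thus passed the detection filter through the group where it was high, which weakens its p-value as support. Its call was lost in the fit of only the compared arrays (adjusted p = 0.061). Acpp and 9530077C05Rik were both highest on array 2 of the 70% group and lowest on array 4.

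Aldh8a1, an aldehyde dehydrogenase of tryptophan metabolism, read 9.65, 9.67, 9.64 and 9.10 and then 8.65, 8.86, 8.28 and 7.96, below a sham mean of 11.05 in both groups. It fell by 1.08 (SE 0.15, adjusted p = 0.00022). Kank1, a regulator of the actin skeleton, fell by 1.12 (SE 0.16, adjusted p = 0.00028) and the phosphatase Ppm1l by 0.95 (SE 0.20, adjusted p = 0.0075), both also with slides as fixed terms. Ciart, a repressor of the circadian clock, fell by 1.15 (SE 0.24, adjusted p = 0.0057, and adjusted p = 0.22 with fixed terms). It was the 1 of 13 clock genes that changed. Among the changed probes, 206 had no single gene in the annotation and are not named here.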
